A study of Mus musculus with 4 samples.

Results

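The genes described here encode the subunits of oxidative phosphorylation, and they were followed through 8 clusters of mouse CD8+ T cells. Members were protein-coding genes taken by symbol: those beginning with Uqcr, with Atp5, with Cox followed by a digit from 4 to 8, or with Nduf followed by a, b, c, s or v, the Ndufaf assembly factors being left out. A second subgroup held the genes of mitochondrial DNA beginning with mt-Nd, mt-Co, mt-Atp or mt-Cytb. The rule gave 92 of the 17561 genes in the count table, of which 14741 are protein coding. Of the 92, 79 were nuclear members and 13 were mitochondrially encoded. By symbol, 38 nuclear and 7 mitochondrially encoded members were assigned to complex I, 8 and 1 to complex III, 16 and 3 to complex IV, and 17 and 2 to complex V. Every Nduf gene, Ndufa4 included, was put in complex I by its symbol and not by the place of its protein. Sums by complex use this assignment.

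Oxidative phosphorylation is the step in which mitochondria pass electrons from NADH and succinate to oxygen and use the resulting proton gradient to make ATP. Complexes I, III and IV pump protons, complex II feeds in electrons without pumping, and complex V, the ATP synthase, lets the protons flow back. All of these except complex II are built from parts made in different places: most subunits are encoded in the nucleus, translated in the cytosol and imported, whereas a small core is transcribed and translated inside the mitochondrion from its own DNA. In CD8+ T cells this pathway carries most ATP production in resting and memory cells, it remains active together with glycolysis in dividing effector cells, and impaired mitochondria are a known trait of exhausted cells.

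The cells were sorted from bone marrow (BM) 4 weeks (day 28) after stem cell transplantation (SCT) in a mouse model of myeloma relapse. The 4 groups were TIGIT inhibition with vehicle, isotype control with lenalidomide, TIGIT inhibition with lenalidomide, and isotype control with vehicle. TIGIT is an inhibitory receptor of T and NK cells, and lenalidomide is a drug that redirects the ubiquitin ligase component cereblon. All groups shared a graft of 10000000 BM cells with 5000000 T cells, by the sample labels, from genetically matched donors. The study's text gives another number of T cells, likewise for all groups of the single-cell experiment. Mice were on a C57BL/6 background, either wild type or carrying a CRBN transgene, which makes mouse cells sensitive to the drug, and the labels do not say which group had which. Antibody began on the day of transplantation and drug or vehicle on day 14. Each group was 1 pool of 5 mice and gave 1 library by 10x 5′ chemistry. The deposited table numbers the libraries 1 to 4 without naming their treatment, so treatments were not compared, the 4 libraries are not replicates of a condition, and no p-value is given.

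The table held 11754 cells and 17561 genes. Libraries 1 to 4 held 4237, 2003, 1725 and 3789 cells, 15556967 to 38440687 unique molecular identifiers (UMIs), and medians of 7115 to 7669 UMIs per cell. Levels are given as CPM, the UMIs of a gene or list in a cluster scaled to 1000000 UMIs of that cluster, hence shares of the RNA and not amounts per cell. Intervals are at the 95% level and cover counting error only. The cells had been kept on Cd3e, Cd3g and Cd8a, and the summed CD8 T cell markers stood between 3883 and 8146 CPM in every cluster. Macrophage markers summed to 1109 CPM in GzmA+ Tex and to between 9.45 and 72.9 CPM in the others, and 56 barcode sequences occurred in more than 1 library. No doublet caller was run here, and how doublets were treated before deposit is not given in the sources used here. Cycling cells had a median of 13959.5 UMIs, and the part of doublets in their values and in those of GzmA+ Tex was not tested. The mitochondrial share of a cell never exceeded 14.5%, since cells above 15% had been removed, so the mitochondrially encoded levels are those of cells under that limit.

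Library 1 stood apart for some members. Atp5k, which encodes the small e subunit of ATP synthase, stood at 91.1, 149, 165 and 135 CPM in Tn of libraries 1 to 4, and library 1 was the lowest in all 8 clusters, at a median of 0.511 times the median of the other libraries. Library 1 was likewise the lowest in all 8 clusters for Ndufa3 (0.627 times), mt-Nd3 (0.635), Atp5mpl (0.737), Cox7c (0.747) and Uqcr11 (0.798). This held for 5 of 72 nuclear members in library 1, against 0, 2 and 0 in libraries 2 to 4, and its cause was not tested. Ratios of these genes are therefore read within libraries.

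Promoters of the nuclear members were searched for 3 strings, because binding sites of NRF1, of ETS factors such as GABP, and of YY1 are known in genes of this pathway. RefSeq promoters (GRCm38.p6, 250 bases before to 50 after each start) matched 63 of the 79 nuclear members by symbol. Both strands were read for the strings of NRF1, of ETS factors (CCGGAAG) and of YY1, whose letters are in capitals in the sites printed here, and the last 2 strings can share the letters AAG. The NRF1 string was present in 5 members, Atp5g2, Atp5k, Cox6a1, Ndufa11 and Uqcrc1, or 7.94%, against 1.07% of 27025 genes in the promoter table and 2.0% of the 12439 that the count table also holds. YY1's string was present in Atp5j, Ndufa9, Ndufs4, Ndufs6 and Ndufs7, again 7.94%, against 0.995% and 1.99%. The ETS string was found in 14 members, or 22.2%, against 9.93% and 17.6%. These are matches of letters, not measured binding. Shown are 7 of the sites with the match in capitals, 6 from members whose values are given further on and that of Atp5j as an instance of the YY1 string. The order is Atp5g2 and Atp5k (NRF1) at chr15:102671070-102671099 and chr5:108434430-108434459, both on the minus strand, then (ETS) Cox8a at chr19:7217603-7217632 minus, Ndufb7 at chr8:83566727-83566756 plus, Ndufs8 at chr19:3912741-3912770 minus and Uqcrh at chr4:116075062-116075091 minus, and (YY1) Atp5j, of the ATP synthase stalk, at chr16:84835045-84835074 minus. Reading CTTCCGG on the printed strand is the ETS string on the other strand.
Atp5g2: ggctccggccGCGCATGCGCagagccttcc
Atp5k: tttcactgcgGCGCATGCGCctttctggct
Cox8a: tttccgaaataCTTCCGGctcgggcgtccg
Ndufb7: gcctagatgacCCGGAAGacactgaagggg
Ndufs8: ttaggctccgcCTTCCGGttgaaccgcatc
Uqcrh: agtatgccgcaCTTCCGGccaggtcgccgg
Atp5j: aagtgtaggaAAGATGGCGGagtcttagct

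None of the 3 strings was in the promoters of Cox5b, Cox5a and Atp5g3, which were among the highest members in cycling cells against other effector cells, nor in that of Cox7a2l, the lowest there. For these 4, taken from the upper and lower ends of that comparison, 100 bases upstream of a start are shown: Cox5b at chr1:36691349-36691448 plus, Cox5a at chr9:57521132-57521231 plus, Atp5g3 at chr2:73911327-73911426 minus and Cox7a2l at chr17:83514334-83514433 minus. The stretches of Cox5a, Atp5g3 and Cox7a2l end at the start that RefSeq gives. That of Cox5b ends 38 bases before it, where GENCODE M21 begins the gene. The stretch of Cox7a2l lies inside the gene as GENCODE M21 draws it, on chromosome 17 from 83501918 to 83517330.
Cox5b: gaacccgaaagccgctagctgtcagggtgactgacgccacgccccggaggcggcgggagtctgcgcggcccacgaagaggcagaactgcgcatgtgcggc
Cox5a: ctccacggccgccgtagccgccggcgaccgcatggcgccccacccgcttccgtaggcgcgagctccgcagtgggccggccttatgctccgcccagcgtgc
Atp5g3: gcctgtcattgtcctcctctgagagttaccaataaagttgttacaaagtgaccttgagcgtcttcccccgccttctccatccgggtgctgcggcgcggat
Cox7a2l: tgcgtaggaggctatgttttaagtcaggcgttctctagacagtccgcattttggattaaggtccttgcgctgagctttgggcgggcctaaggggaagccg

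Nuclear and mitochondrially encoded members took similar shares of the RNA in resting cells and parted in the others. In naive cells (Tn) the 79 nuclear members summed to 21404 CPM and the 13 mitochondrially encoded ones to 22223 CPM, a ratio of nuclear to mitochondrially encoded UMIs of 0.963, with 0.943 to 1.02 over the libraries. Central memory cells (Tcm) stood at 22339 and 22358 CPM, a ratio of 0.999 (0.936 to 1.04). The ranges of Tn and Tcm overlapped. Effector (Teff) and exhausted (Tex) clusters other than TIGIT+ Teff lay above them: the ratio was 1.19 in GzmB+ Teff (1.12 to 1.23), 1.19 in GzmA+ Tex (1.02 to 1.28), 1.32 in transitory Teff (1.25 to 1.42) and 1.45 in TIM-3+ Tex (1.42 to 1.53). Cycling cells had the widest range, with 1.30, 1.63, 1.03 and 1.69 in libraries 1 to 4 and 1.39 over all.

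TIGIT+ Teff lay at the other end. Their nuclear members summed to 18423, 21506, 16180 and 19812 CPM in libraries 1 to 4, the lowest of the 8 clusters in every library, and their mitochondrially encoded members to 29144, 30748, 30197 and 29727 CPM, the highest in every library. The ratio was 0.611, with 0.632, 0.699, 0.536 and 0.666 in the libraries, and did not overlap that of any other cluster. Libraries 2 and 4 gave only 50 and 59 of its 816 cells. Among the nuclear sums Tn came next to last in every library, and cycling cells came first in libraries 1, 2 and 4 (25652, 29388 and 29179 CPM) but not in library 3 (22997 CPM).

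**Figure D1:**
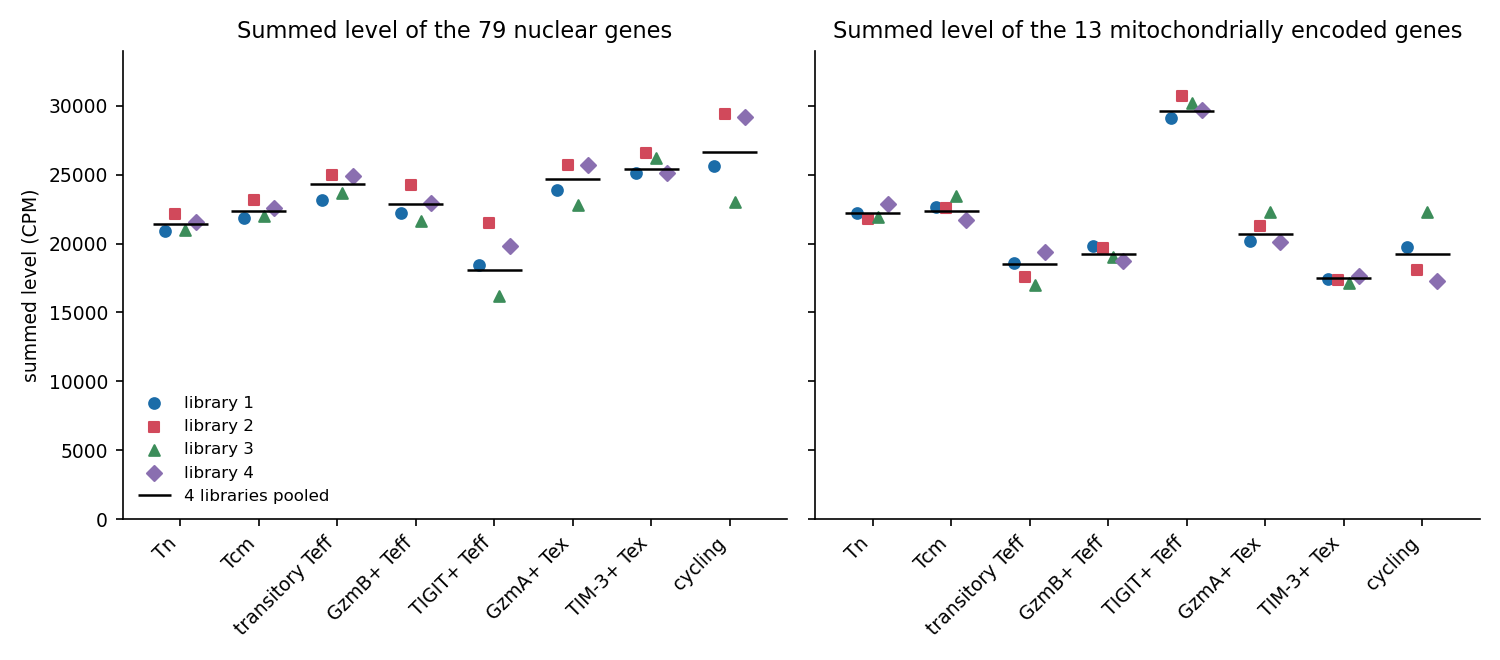
Summed level in CPM of the 79 nuclear (left) and 13 mitochondrially encoded members (right) in 8 clusters. Points are the 4 libraries and horizontal lines the libraries pooled. TIGIT+ Teff have the lowest nuclear and the highest mitochondrially encoded sum in each library, and cycling cells spread from 22997 to 29388 CPM in the left panel.

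**Figure D2:**
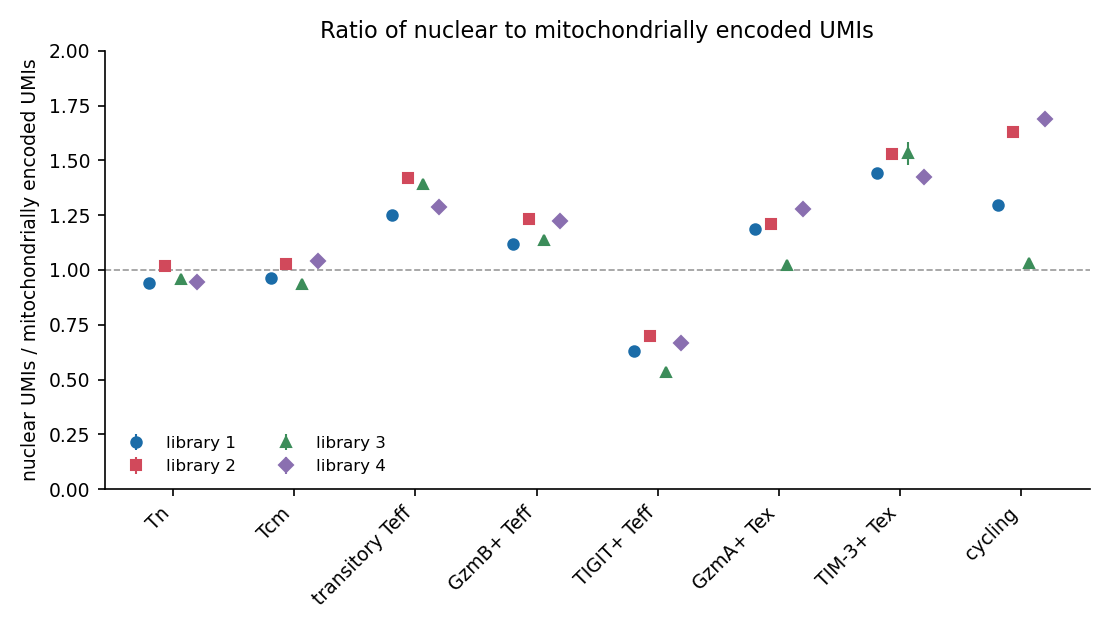
Ratio of nuclear to mitochondrially encoded UMIs by cluster and library, with 95% counting intervals, most of them smaller than the points. Tn and Tcm lie near 1, TIGIT+ Teff between 0.536 and 0.699, and TIM-3+ Tex between 1.42 and 1.53.

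By the share of cells with more nuclear than mitochondrially encoded UMIs, TIGIT+ Teff, Tn and Tcm stayed the lowest in that order. TIM-3+ Tex stayed the highest, while cycling cells fell below transitory Teff and GzmA+ Tex below GzmB+ Teff. After thinning every cell at random to 2500 UMIs, nuclear UMIs outnumbered mitochondrially encoded UMIs in 17.4% of TIGIT+ Teff cells (14.9 to 20.2), 42.6% of Tn, 46.9% of Tcm, 66.2% of GzmA+ Tex, 69.5% of GzmB+ Teff, 72.3% of cycling cells, 80.7% of transitory Teff and 85.9% of TIM-3+ Tex (83.6 to 87.9). Without thinning the shares ran from 18.8% in TIGIT+ Teff to 88.9% in TIM-3+ Tex. The order was the same, with 69.2% of GzmA+ Tex, 70.8% of GzmB+ Teff, 73.5% of cycling cells and 82.4% of transitory Teff. Among cycling cells the thinned share was 66.5, 86.5, 50.1 and 90.0% in libraries 1 to 4, so here too library 3 stood lowest. The median TIGIT+ Teff cell held 39 nuclear and 72 mitochondrially encoded UMIs of its 2500, with quartiles of 20 to 51 and 52 to 108.25, against 62 and 40 in TIM-3+ Tex. Over the 32 combinations of cluster and library the log2 levels of the 2 sums ran in opposite directions (Pearson r of -0.80, Spearman rho of -0.77). Without TIGIT+ Teff r was -0.67 over 28 points, which share libraries and the denominator of the CPM, and this is a description only.

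Members within each subgroup were highest and lowest in the same few clusters. Of the 72 nuclear members with a mean of at least 10 CPM, 41 were highest in cycling cells and 17 in TIM-3+ Tex, and 61 were lowest in TIGIT+ Teff. Exceptions were 6 members highest in Tn, namely Ndufa10, Ndufa6, Atp5g1, Atp5g2, Atp5mpl and Cox7a2l, and 6 lowest in Tn, all but Uqcrc1 being complex I genes (Ndufa13, Ndufb7, Ndufb8, Ndufs4 and Ndufs8). Ndufs1, which encodes a core iron-sulfur subunit of complex I, was the 1 nuclear member highest in TIGIT+ Teff, at 49.4 CPM. All 13 mitochondrially encoded members were highest in TIGIT+ Teff, and 11 were lowest in TIM-3+ Tex. The highest cluster exceeded the lowest by 1.23 (Ndufa10) to 1.95 times (Ndufb8) among nuclear members, with a median of 1.53, and by 1.57 to 1.94 times among the mitochondrially encoded ones, with a median of 1.71.

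In the comparisons that follow, a member was called when its pooled ratio passed 1.5-fold and the ratio had the same sign in all 4 libraries. Since cluster names were made from the same counts, ratios between clusters describe them and were not tested. Tn served as the second side of 2 comparisons and the 5 Teff and Tex clusters entered 2, so these are not independent of each other.

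Central memory cells differed little from naive cells in this pathway. The nuclear sum was higher in Tcm by a log2 ratio of 0.06 (0.05 to 0.07), with 0.06 to 0.07 in the 4 libraries, and the mitochondrially encoded sum by 0.01, with libraries from -0.07 to 0.10. With Leiden cluster numbers in place of the names the nuclear value was 0.0050 and the difference between the sums turned to -0.018. No member of either subgroup was called, while 7.97% of the 7088 genes tested were called higher and 1.93% lower. The median gene was itself higher by 0.12, so relative to it the nuclear sum was lower, at -0.06. Complex IV gave the largest nuclear value (0.12, with 0.10 to 0.14 in the libraries), against 0.06 for complex I, 0.04 for complex V and 0.01 for complex III.

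The clearest member was Cox8a, a small subunit of cytochrome c oxidase. Its level was 1201, 1185, 1153 and 1186 CPM in Tcm of libraries 1 to 4 and 917, 964, 891 and 931 CPM in Tn, with no overlap and a log2 ratio of 0.36 (0.33 to 0.39). Of the 72 nuclear members it was the only 1 past 1.25-fold, a rule that called 20.0% of all genes higher and 5.19% lower. Cox7a2, another small complex IV subunit, was next to Ndufs8, Ndufb7 and Ndufa8 of complex I, at log2 ratios of 0.23 to 0.27. At the lower end stood Atp5mpl, a small membrane protein of ATP synthase, at 360 against 413 CPM (log2 ratio of -0.20), Ndufa10 (-0.16), Ndufv2, an iron-sulfur subunit of the NADH-binding module (-0.15), Uqcrfs1, the Rieske iron-sulfur protein of complex III (-0.15), and Uqcrq (-0.14). In the 4 libraries 27 of 72 nuclear members were above 0 throughout and 10 below, where 38.4% and 12.3% of all genes were. Among mitochondrially encoded genes mt-Nd4 was above 0 in all 4 libraries (0.14, 0.03 to 0.21).

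No other gene of the pathway lists was called. None of the 4 complex II genes, Cycs and Cyc1, 8 complex I assembly factors, 14 other assembly factors, 77 mitochondrial ribosomal protein genes or 12 tricarboxylic acid cycle genes tested passed 1.5-fold in Tcm against Tn, and single values reached 0.40 among the complex I assembly factors and 0.43 among the regulators. Nor did any of 15 regulators, although Myc, which drives growth and mitochondrial biogenesis, stood at 134 against 193 CPM (log2 ratio of -0.53, with -0.61 to -0.28 in the libraries).

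Effector and exhausted cells carried more nuclear and less mitochondrially encoded RNA of the pathway than Tn, both by small amounts and not in every library. In the 5 Teff and Tex clusters together the nuclear sum was 23474 against 21404 CPM, a log2 ratio of 0.13 (0.13 to 0.14), with 0.12, 0.18, -0.02 and 0.18 in libraries 1 to 4. The mitochondrially encoded sum was 20367 against 22223 CPM, at -0.13, with -0.09, -0.18, 0.06 and -0.24. Library 3, in which 271 of the cells on the first side were TIGIT+ Teff, had both signs turned. Without TIGIT+ Teff the 2 values were 0.19 and -0.25. The difference between the subgroups, nuclear minus mitochondrially encoded, was 0.26 on the log2 scale, with -0.08 in library 3 and up to 0.42 in the others.

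Scaling decides the sign of the nuclear value. Cytosolic ribosomal protein genes took 400392 CPM in Tn and 267775 CPM in the 5 clusters, and the median gene was higher by 0.29. Relative to the median gene the nuclear sum was at -0.16 and the mitochondrially encoded one at -0.41. With UMIs of genes other than ribosomal protein and mitochondrially encoded ones as the denominator they were at -0.17 and -0.43. The difference between the subgroups does not depend on the denominator.

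By complex, the nuclear genes of complex IV were the highest, at 6139 against 5173 CPM (log2 ratio of 0.25, with 0.06 to 0.32 in the libraries). Complex I was at 0.13, complex III at 0.12 and complex V at 0.06. The mitochondrially encoded subunits of complex I were the lowest, at 3945 against 4764 CPM (-0.27, with -0.38 to -0.15). In the pool mt-Cytb of complex III (-0.16) and the mitochondrially encoded subunits of complex V (-0.14) and IV (-0.06) were nearer to Tn. For complex IV this pool joined 16078 CPM in TIGIT+ Teff with 9458 to 11088.5 CPM in the other clusters, all below the 11485.5 CPM of Tn. In plain CPM, complex I thus had nuclear and mitochondrially encoded parts on opposite sides of Tn in all 4 libraries. Its nuclear value in library 3 was only 0.01, and its pooled 0.13 lay below the 0.29 of the median gene.

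No nuclear member was called, against 21.0% of the 7317 genes tested called higher and 3.33% lower. Ndufb8, an accessory subunit of the membrane arm of complex I, came nearest: 222, 205, 158 and 206 CPM in libraries 1 to 4, against 154, 147, 123 and 140 CPM in Tn, without overlap, for a log2 ratio of 0.55 (0.47 to 0.63). It passed 1.5-fold when TIGIT+ Teff were left out. Ndufb7 was at 320, 336, 286 and 313 CPM against 222, 226, 202 and 229 CPM in Tn, also without overlap (0.52, with 0.45 to 0.57 in the libraries). Ndufa13 (0.43), Cox5b, a zinc-binding subunit of complex IV (0.41), and Ndufs8 (0.40) came next. At 1.25-fold 11 nuclear members were higher and 1 lower, among 42.7% and 7.16% of all genes, and these 11 lay at 0.32 to 0.55.

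Of the 5 lowest members with 1 sign throughout, 3 belong to ATP synthase. Atp5mpl stood at 260, 381, 334 and 344 CPM in libraries 1 to 4 against 326, 450, 456 and 417 CPM in Tn, lower in each library although the ranges overlap because library 1 is low on both sides (log2 ratio of -0.37). Atp5g1 (327 against 385 CPM, -0.23) and Atp5g2 (796 against 923 CPM, -0.21) encode precursors of the same mature c subunit of the membrane ring, as does Atp5g3. Ndufa10 (-0.17) and Cox7a2l (-0.13) were the others named by the rule. Of the 72 members 31 were above 0 in all 4 libraries and 8 below, where 55.0% and 11.5% of all genes were.

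Among the mitochondrially encoded genes the values were uneven. mt-Nd2 was at 830, 801, 915 and 826 CPM in libraries 1 to 4 against 1089, 1099, 1106 and 1179 CPM in Tn, without overlap (log2 ratio of -0.43). mt-Nd3 (-0.38), mt-Nd4l (-0.30) and mt-Nd1 (-0.24), also of complex I, followed, whereas mt-Co1 (-0.02) and mt-Co2 (-0.03) were near 0. Between them lay mt-Nd5 (-0.21), mt-Atp8 (-0.17), mt-Cytb (-0.16), mt-Atp6 and mt-Co3 (both -0.13) and mt-Nd4 (-0.07). mt-Nd6, the gene on the opposite strand of mitochondrial DNA, was at 0.18, with -0.03 to 0.55 in the libraries. In all, 7 of 13 were below 0 in all 4 libraries and none above, where 11.5% and 55.0% of all genes were. These ratios include TIGIT+ Teff, the cluster in which all 13 were highest.

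**Figure D3:**
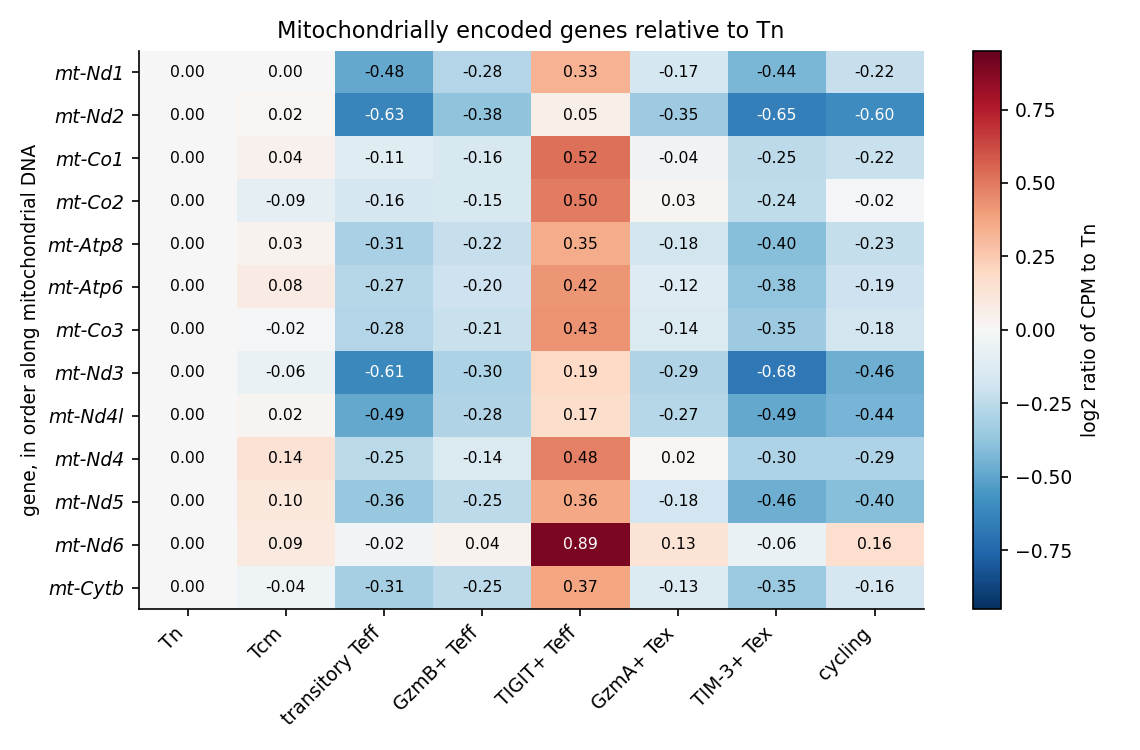
Log2 ratio of CPM to Tn for each mitochondrially encoded gene (in order along mitochondrial DNA) and cluster, libraries pooled. TIGIT+ Teff are above 0 in every gene, and mt-Nd2 and mt-Nd3 reach -0.65 and -0.68 in TIM-3+ Tex.

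Some genes that assemble or regulate the complexes passed the 1.5-fold rule, which called 21.0% of all genes higher and 3.33% lower. Ndufaf3, a complex I assembly factor, stood at 49.5 against 29.8 CPM (log2 ratio of 0.73), the 1 called of 8. Cox17, the copper chaperone of complex IV, was at 147 against 96.3 CPM (0.61), and Atpif1, the peptide that blocks ATP synthase running in reverse, at 149 against 92.7 CPM (0.69). These were 2 of 14 other assembly factors tested. Of 14 regulators, Nrf1 (36.3 against 22.6 CPM, 0.69) and Gabpa (25.2 against 15.2 CPM, 0.73) were called higher and Myc (97.1 against 193 CPM, -0.99) and Pprc1 (14.6 against 22.3 CPM, -0.61) lower. Mitochondrial ribosomal protein genes gave 0 higher and 1 lower (Mrpl23, 131 against 219 CPM) of 77, and the tricarboxylic acid cycle 0 of 12.

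Cycling cells carried more nuclear RNA of the pathway than the 5 Teff and Tex clusters pooled in every library, and most members shared the direction. Against the 5 Teff and Tex clusters the nuclear sum was 26685 against 23474 CPM, a log2 ratio of 0.18 (0.18 to 0.19), with 0.18, 0.22, 0.15 and 0.25 in libraries 1 to 4. The pool of library 3 includes TIGIT+ Teff at 16180 CPM. In that library cycling cells, at 22997 CPM, lay below TIM-3+ Tex (26218 CPM) and transitory Teff (23674 CPM). Of 72 members 59 were above 0 in all 4 libraries and 4 below, where 36.5% and 30.2% of the 7734 genes tested were. The median gene was higher by only 0.04, and the nuclear value stayed above 0 under both other scalings (0.15 and 0.08). The mitochondrially encoded sum was lower by 0.08, with -0.16 to -0.04 in the libraries, but this sign turned to 0.08 when each cell was given equal weight or thinned, and to 0.04 without TIGIT+ Teff on the second side.

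Nuclear genes of complex V were the highest by complex (9400 against 8060 CPM, log2 ratio of 0.22), then those of complex IV (0.20), I (0.17) and III (0.05). No member was called at 1.5-fold, against 10.9% of all genes called higher and 4.50% lower. At 1.25-fold 20 members were higher and 3 lower, against 21.7% and 13.8%. The shift was therefore wide and shallow: 59 of 72 members kept 1 direction, and none passed 1.5-fold.

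Cox5b was at 816, 923, 687 and 935 CPM in cycling cells of libraries 1 to 4 and 576, 649, 522 and 620 CPM in the Teff and Tex clusters, without overlap (log2 ratio of 0.50, 0.47 to 0.52). Its complex IV neighbour Cox5a was at 621, 635, 576 and 634 CPM against 450, 447, 405 and 435 CPM, also without overlap (0.50). Both were highest in cycling cells of all 8 clusters. In ATP synthase, Atp5b, the catalytic beta subunit, was at 743, 754, 674 and 756 CPM against 556, 484, 498 and 545 CPM (0.47). Atp5o, of the stalk that holds the catalytic head still (0.47), and Atp5g3, of the c ring (0.46), were next, and neither overlapped between the sides. The c subunit genes did not share 1 pattern, since Atp5g1 and Atp5g2 were highest in Tn.

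Against this direction stood a small set of members from 3 complexes. Cox7a2l was at 218, 204, 206 and 208 CPM in cycling cells and 316, 285, 285 and 300 CPM in the Teff and Tex clusters, without overlap, for a log2 ratio of -0.51 (-0.56 to -0.47). Ndufa6, an accessory subunit of complex I, was at 264, 314, 239 and 291 CPM against 356, 421, 338 and 381 CPM (-0.45). Uqcrh, the hinge protein of complex III, was at 585, 633, 493 and 605 CPM against 743, 858, 693 and 761 CPM (-0.39), and Ndufa7 at 293 against 321 CPM (-0.14). For the first 3 the ranges over the libraries did not overlap, and their signs held under both other scalings, both of which lower every value here. Uqcrh has processed copies in the annotation, so its count is less certain.

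**Figure D4:**
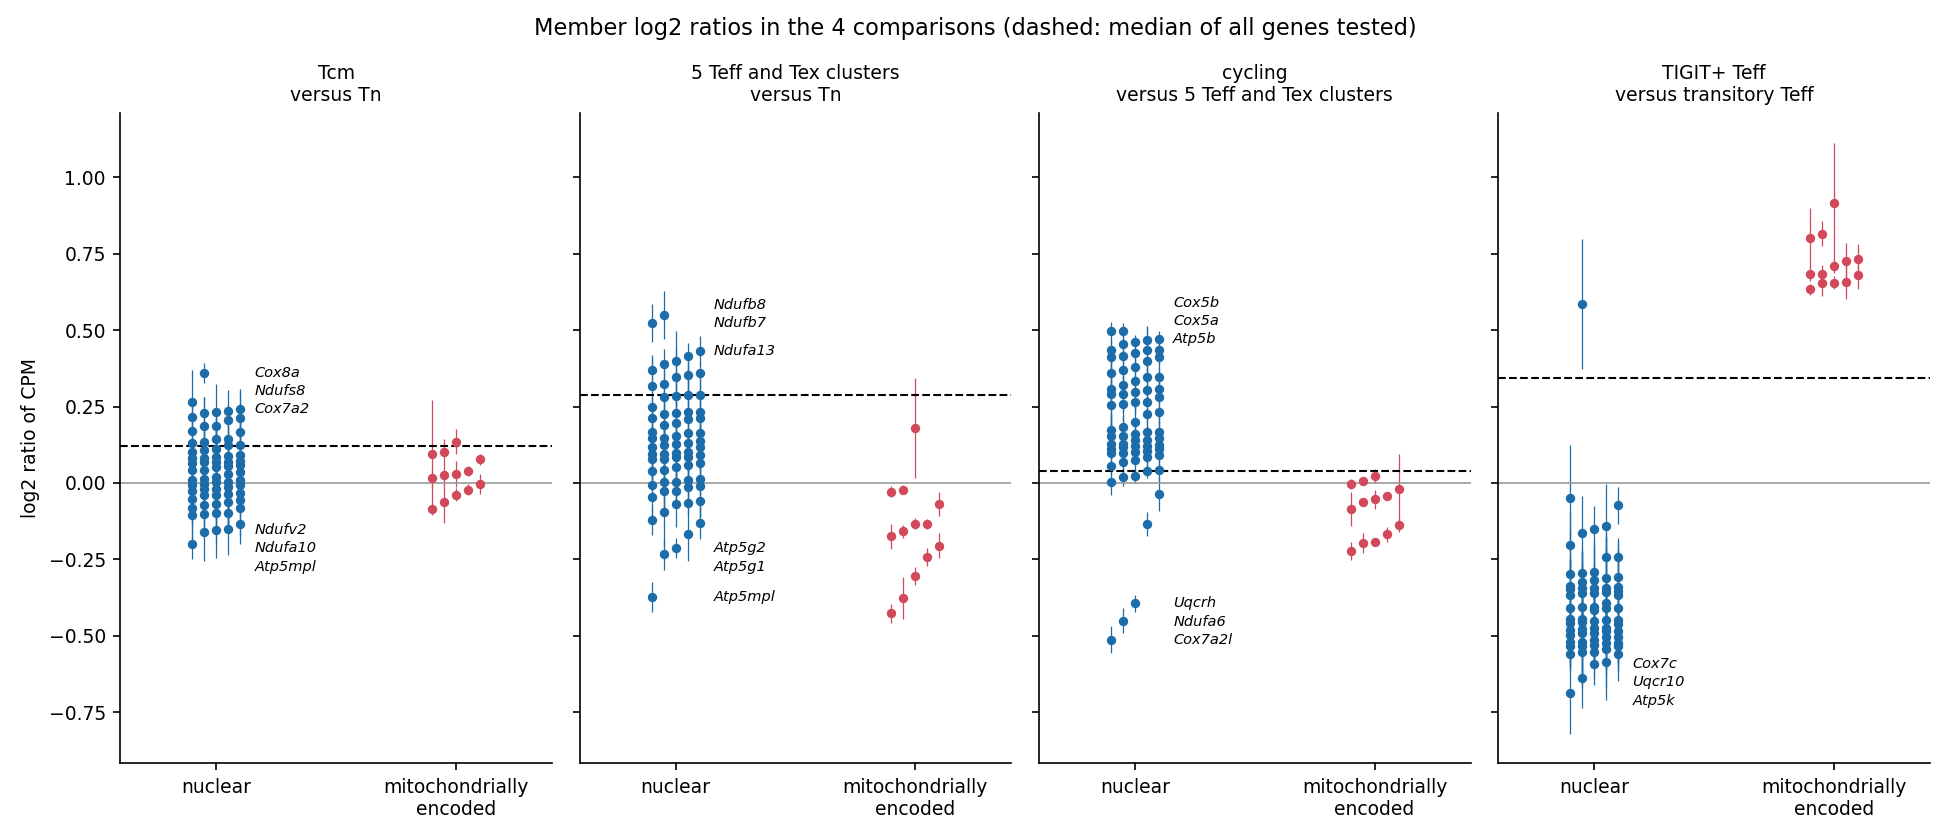
Log2 ratio of CPM for each nuclear (blue) and mitochondrially encoded member (red) in 4 comparisons, with 95% counting intervals. The dashed line is the median of all genes tested. Up to 3 nuclear members are named on a side. In cycling cells Uqcrh, Ndufa6 and Cox7a2l stand apart below the rest, and in TIGIT+ Teff the lone blue point at 0.59 is Ndufs1.

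Of the mitochondrially encoded genes 6 were below 0 in all 4 libraries in cycling cells and none above, where 30.2% and 36.5% of all genes were. As given above, the sign of their sum turned without TIGIT+ Teff on the second side. mt-Nd4 (-0.22), mt-Nd5 (-0.20) and mt-Co1 (-0.19) were the lowest, while mt-Nd1 (0.02), mt-Co2 (0.01) and mt-Cytb (0.00) were at the level of the Teff and Tex clusters within their counting intervals.

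Other gene lists of the pathway differed among themselves in cycling cells. Cycs, the mobile electron carrier between complexes III and IV, was at 280 against 191 CPM (log2 ratio of 0.56), and Cyc1, the haem subunit that hands it electrons, at 179 against 127 CPM (0.50). Of the 4 complex II genes, Sdhb (0.40) and Sdhd (0.41) passed 1.25-fold. In the tricarboxylic acid cycle Fh1, fumarase (67.0 against 40.3 CPM, 0.74), and Idh3a, a subunit of NAD-dependent isocitrate dehydrogenase (136 against 85.3 CPM, 0.68), passed 1.5-fold, and 9 of 12 genes were above 0 in all 4 libraries. Mitochondrial ribosomal protein genes gave 7 higher and 0 lower of 77 at 1.5-fold, a smaller share than the 10.9% of all genes called higher, led by Mrpl18 (217 against 125 CPM, 0.79), with 49 above 0 and 8 below in all 4 libraries. Atpif1 was at 247 against 149 CPM (0.73). The 12 regulators tested had a median of 0.03, with 5 above 0 and 3 below in all 4 libraries. Among them Tfam, which packages and transcribes mitochondrial DNA, was at 55.7 against 37.9 CPM (0.56), Nrf1 at 0.46 and Gabpa at 0.45, and Myc at -0.35. Complex I assembly factors had no call of 7 and a median of -0.06, with 1 above 0 and 2 below in all 4 libraries.

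TIGIT+ Teff were set against transitory Teff because the levels above had placed them at the far end, so what follows describes that choice. The nuclear sum was 18092 against 24329 CPM, a log2 ratio of -0.43, with -0.33, -0.22, -0.55 and -0.33 in libraries 1 to 4. The mitochondrially encoded sum was 29618 against 18483 CPM, at 0.68, with 0.65, 0.81, 0.83 and 0.62. The 2 subgroups thus differed by -1.11 on the log2 scale, with -1.38 to -0.95 in the libraries. By complex the nuclear values ran from -0.46 (III) to -0.40 (I) and the mitochondrially encoded ones from 0.66 (IV) to 0.73 (I), so the split followed the genome of origin and not the complex. TIGIT+ Teff cells came mostly from libraries 1 and 3, and the mean of the 4 library ratios was -0.36 for the nuclear and 0.73 for the mitochondrially encoded sum.

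All 13 mitochondrially encoded members were called higher, where 32.8% of the 7819 genes tested were, and 0 nuclear ones. Their ratios lay between 0.63 (mt-Co1) and 0.92 (mt-Nd6). mt-Co1, of the catalytic core of complex IV, was at 6354, 6409, 6923 and 6385 CPM in TIGIT+ Teff of libraries 1 to 4, and transitory Teff had 4334, 3976, 4067 and 4293 CPM. mt-Nd6 was at 62.0, 77.5, 55.7 and 81.9 CPM against 30.8, 28.3, 36.8 and 37.4 CPM. None of the 13 overlapped between the 2 clusters, and the share of all genes without overlap was not counted. All 13 were above 0 in all 4 libraries, as were 44.1% of all genes. Against the median gene, higher by 0.34, the mitochondrially encoded sum remained above 0, at 0.34, and the nuclear sum was at -0.77.

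Of the 72 nuclear members 57 were below 0 in all 4 libraries and 0 above, where 13.7% and 44.1% of all genes were. At 1.5-fold 3 were called lower, Atp5k, Uqcr10 and Cox7c, where 1.53% of all genes were. None was called when the 4 libraries were weighted equally, a rule that called 1.47% of all genes lower, and Atp5k and Cox7c are among the genes that run low in library 1. At 1.25-fold 49 were lower and 0 higher (8.33% and 40.7% of all genes). Uqcr10, a small subunit of complex III, was at 170, 226, 155 and 207 CPM, while transitory Teff had 245, 269, 220 and 301 CPM, lower in each library with overlapping ranges (pooled log2 ratio of -0.64, with -0.54 to -0.25 in the libraries). No library alone reached the pooled value of Uqcr10. Atp5h, the d subunit in the stalk of ATP synthase, was at 539, 645, 473 and 530 CPM against 775, 796, 829 and 746 CPM, without overlap (-0.56), and Ndufa3 at 228 against 336 CPM (-0.56).

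A handful of nuclear members did not share the low level, and they were chosen after their values were seen. Ndufs1 was at 49.1, 43.3, 55.7 and 34.9 CPM against 34.1, 26.01, 34.6 and 35.8 CPM, higher in libraries 1 to 3 and not in library 4 (log2 ratio of 0.59, 0.37 to 0.80). Ndufv1, the flavin-binding subunit beside it in complex I (-0.05), Atp5b (-0.07), Ndufa10 (-0.14) and Atp5a1, the alpha subunit of the catalytic head (-0.15), were the next nearest to 0.

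Nuclear-retained RNA moved with this contrast. Malat1, Neat1 and Kcnq1ot1, transcripts that stay in the nucleus, summed to 6808 CPM in TIGIT+ Teff (5097 to 8278 in the libraries) and to between 2373 and 3085 CPM in the other clusters. They exceeded 0.5% of UMIs in 558 of 816 TIGIT+ Teff cells (68.4%), whose nuclear members stood at 15995 CPM, mitochondrially encoded ones at 32103 CPM and ratio at 0.498. In the remaining TIGIT+ Teff cells the values were 20873 and 26326 CPM, with a ratio of 0.793 (0.744 to 0.821 in the libraries), still under that of each other cluster. Left without the cells over that limit on both sides, the comparison gave -0.25 for the nuclear and 0.51 for the mitochondrially encoded sum, and no nuclear member was called.

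Cycling cells divided in the same way, and unequally between libraries. Cells over the limit made up 20.1, 6.11, 34.6 and 2.49% of cycling cells in libraries 1 to 4, in the reverse order of the ratio. Those 314 of 1928 cells had a ratio of 0.494, with 15452 CPM of nuclear members and a median of 6130 UMIs, and the others 1.55, with 27882 CPM and a median of 15155.5 UMIs. Among cycling cells at or under the limit the ratio was 1.497, 1.67, 1.27 and 1.72 in libraries 1 to 4, a narrower range than the 1.03 to 1.69 of all cycling cells. In the other 6 clusters cells over the limit had ratios of 0.8003 (GzmA+ Tex) to 1.32 (TIM-3+ Tex), below the rest of their cluster in each. The part of nuclear-retained RNA in these values was not tested.

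**Figure D5:**
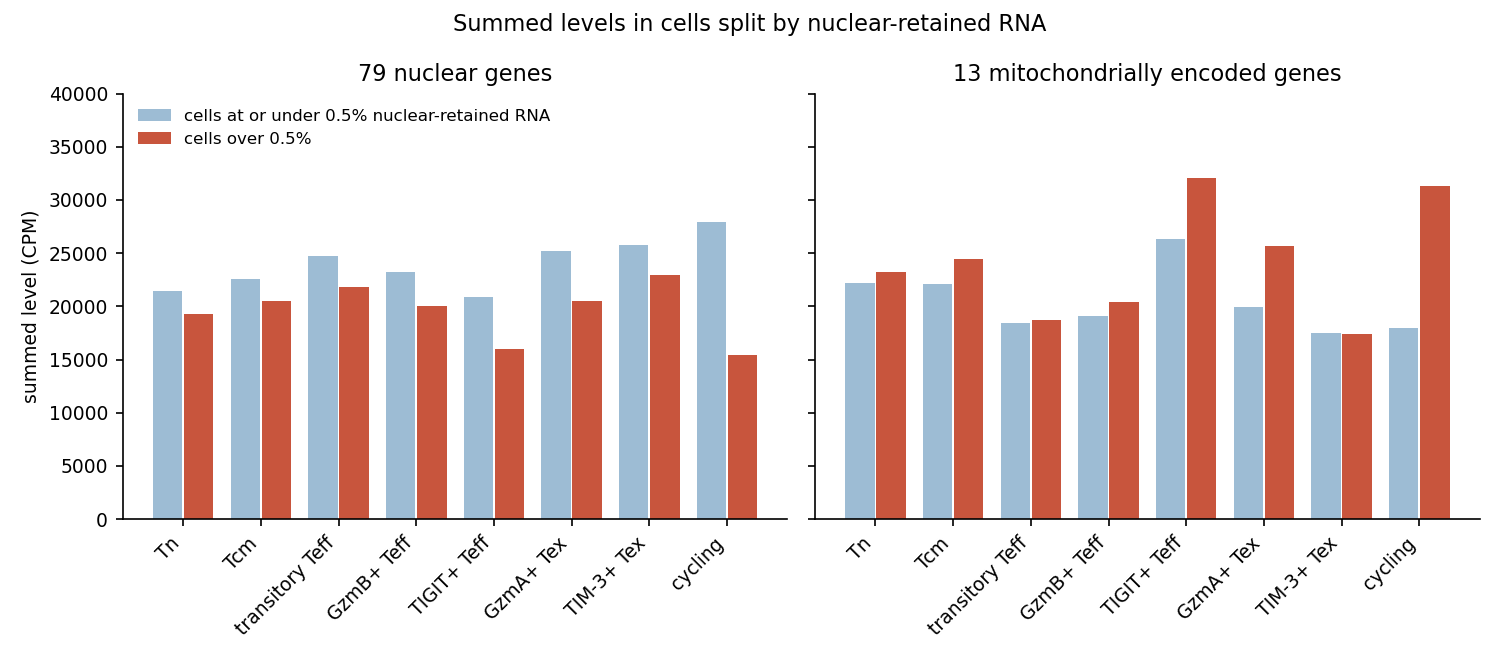
Summed level in CPM of nuclear (left) and mitochondrially encoded members (right) in cells at or under (blue) and over (red) 0.5% nuclear-retained RNA, libraries pooled. The gap is widest in cycling cells, with 27882 against 15452 CPM on the left and 17978 against 31273 CPM on the right.

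Gene length moved with the TIGIT+ Teff contrast too. The 72 nuclear members are short genes, with a median span of 7.25 kb against 24.1 kb for 7728 other genes, and among those others longer genes had higher ratios (Spearman rho of 0.60 across genes, which are not replicates). Within each length class that held more than 1 member the members lay lower than other genes: at under 5 kb the median log2 ratio was -0.48 for 23 members and -0.23 for 847 others, at 5 to 10 kb -0.43 (28) and -0.05 (1010), at 10 to 20 kb -0.35 (13) and 0.14 (1534), and at 20 to 50 kb -0.36 (7) and 0.48 (2275). Ndufs1, at 33.2 kb, is among the longer members. The classes use the span of the gene and are not matched for level, and the part of gene length in these values was not tested.

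The other lists of the pathway are set here against the 32.8% of all genes called higher and the 1.53% called lower in TIGIT+ Teff. Mitochondrial ribosomal protein genes gave 0 higher and 4 lower of 77 at 1.5-fold, with 37 below 0 in all 4 libraries and 1 above. Lrpprc, which with Slirp protects mitochondrial mRNAs, was called higher at 41.4 against 19.7 CPM (log2 ratio of 1.07), and Slirp lower at 27.7 against 46.6 CPM (-0.75, with -0.73 to -0.17 in the libraries). The pooled value of Slirp thus lay beyond that of every library. Pnpt1, a mitochondrial RNA exonuclease, was also higher (24.2 against 14.5 CPM, 0.74), making 2 higher and 1 lower of 6. Gabpa (47.8 against 20.2 CPM, 1.25) and Nrf1 (55.3 against 35.3 CPM, 0.65) were the 2 called of 13 regulators, and Dlst (70.3 against 40.9 CPM, 0.78) the 1 called of 12 tricarboxylic acid cycle genes. Complex II gave no call of 4, with Sdha at 0.24 and Sdhb at -0.33.

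Of the nuclear members 7 did not reach a mean of 10 CPM, and all of them but Atp5s are alternative forms of widespread subunits. Ndufa4l2 had 0 UMIs in the whole table, which allows up to 0.0283 CPM. Cox8b had 1 UMI, Cox4i2 19, Cox7a1 127, Cox6a2 157, Cox6b2 184 and Atp5s 915. The widespread forms were measured in most cells, for example Cox4i1 in 11478 and Cox8a in 11491 of 11754 cells. Cox6a2, the muscle and heart form of Cox6a1, had 63 of its 157 UMIs in 7 GzmA+ Tex cells, 29 of them in 1 cell, and in the other clusters lay between 0.195 and 1.27 CPM. GzmA+ Tex are also the cluster with macrophage transcripts, and the part of these in the Cox6a2 value was not tested. Cox7a1 was past 1.5-fold higher in cycling cells than in the Teff and Tex clusters, and in these than in Tn, when no floor was set, on 127 UMIs in all.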

How the data were processed

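CD8+ T cells from 4 libraries were analysed, with 7115 to 7669 UMIs per median cell. The deposited values are UMI counts per gene and cell, which the authors made with Cell Ranger 7.00 on mm10, thinning libraries to a common depth and keeping cells with 2502 to 24983 UMIs in the table and mitochondrial shares up to 14.5%. Cluster names are the authors' own, deposited per cell. Counts were summed per cluster and library here and divided by the sum of all counts. Symbols and types came from GENCODE M21. Intervals were Poisson for levels, Clopper-Pearson for shares, Woolf for differences and, for ratios, binomial given both counts. Genes with a mean of 10 CPM over both sides were tested against 1.5-fold, and no hypothesis test was run, since libraries are not replicates. Named are the 5 highest and 5 lowest nuclear members with 1 sign in 4 libraries, every mitochondrially encoded member and the alternative subunits. Members and lists were chosen with earlier results of these data known. Scripts (Python 3.11.15, numpy 2.4.6, scipy 1.17.1) were tested on simulated counts. Reads of members with processed copies in the annotation, such as Uqcrh, Atp5l and Atp5k, could be lost or split. Cox7b2, Cox8c and promoters of 16 members were not analysed here.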

Additional observations from a re-analysis of the deposited data

How the results depend on the processing

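The 3 comparisons between clusters were recomputed under each alternative, and values are log2 ratios of the nuclear sum, the mitochondrially encoded sum and their difference, in that order. No paired analysis was possible because no test was run on which a block could act, and ratios within each library and their mean are given in its place. With each cell weighted equally, Teff and Tex against Tn gave 0.089, -0.097 and 0.186, and cycling cells 0.1499, 0.080 (sign turned) and 0.069. Thinning to 2500 UMIs gave 0.070 and 0.016 for the sums in Tcm, 0.088, -0.097 and 0.186 with 1 member called (Ndufb7) in Teff and Tex, and 0.151, 0.075 (turned) and 0.076 in cycling cells. Leiden numbers in place of names gave 0.0050, 0.023 and -0.018 (turned) in Tcm, and 0.097 (nuclear) and 0.222 (difference) in Teff and Tex. Without the 3865 cells holding macrophage or B cell transcripts, Teff and Tex gave 0.116 and 0.248 for nuclear and difference, and cycling cells -0.049 and 0.234 for mitochondrially encoded and difference.

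Leaving out 1 library at a time, the mitochondrially encoded value in Tcm ran from -0.0074 (without library 3, turned) to 0.054 (without library 4), and was also turned without library 1 (-0.00199) or 2 (-0.0016). The difference in Tcm ran from 0.0022 without library 4 to 0.070. Teff and Tex ran from 0.109 to 0.151, -0.158 to -0.078 and 0.187 to 0.307, with the ends nearest 0 without library 4. Cycling cells ran from 0.158 to 0.1997, -0.101 to -0.053 and 0.211 to 0.300. With no floor 1 member (Cox7a1) was called in Teff and Tex and 1 (Cox7a1) in cycling cells, and at 2-fold 0 in each.

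Further alternatives, and the whole TIGIT+ Teff comparison, were chosen after seeing the data. With ribosomal protein and mitochondrially encoded genes out of the denominator, the sums were -0.082 and -0.135 in Tcm (both turned), -0.169 (turned) and -0.428 with 1 member called (Atp5mpl) in Teff and Tex, and 0.079 and -0.186 with 1 called (Cox7a2l) in cycling cells. Scaled to the median gene they were -0.060 and -0.113 (both turned), -0.155 (turned) and -0.414, and 0.147 and -0.118. At 1.25-fold 1, 12 and 23 members were called. Without cells over 0.5% nuclear-retained RNA the values were 0.071, -0.0054 (turned) and 0.076 in Tcm, 0.191, -0.209 and 0.400 with 1 called (Ndufb8) in Teff and Tex, and -0.094 and 0.280 for the last 2 in cycling cells. Without TIGIT+ Teff they were 0.191, -0.247 and 0.437 with 1 called (Ndufb8), and in cycling cells 0.128, 0.040 (turned) and 0.087. With libraries weighted equally they were 0.027 and 0.038 for the last 2 in Tcm, 0.116, -0.110 and 0.227 in Teff and Tex, and 0.201, -0.094 and 0.296 in cycling cells. The causes were not tested.

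In TIGIT+ Teff against transitory Teff both sums kept their direction under every alternative run, with -0.77 to -0.25 for nuclear and 0.34 to 0.9998 for mitochondrially encoded members. Calls among nuclear members varied: 3 as reported, 0 with libraries weighted equally, at 2-fold or without cells high in nuclear-retained RNA, 11 without library 1, 5 without library 4, 25 without cells holding markers, 36 under the denominator without ribosomal protein genes, 49 with cells weighted equally and 50 after thinning, of which 1 (Ndufs1) was higher. Of 1032 ratios of single named genes under alternatives, 639 stayed within their counting interval and 51 changed sign. Depth limits Ndufa4l2, Cox8b, Cox4i2 and the other rarely detected subunits.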

Other observations

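Marker lists of other cells were summed over each cluster, where CD8 T cell markers lay between 3883 and 8146 CPM. Macrophage markers reached 1109 CPM in GzmA+ Tex, with 718 to 1392 CPM in the libraries, beside 5969 CPM of CD8 T cell markers. NK cell markers lay between 115 and 407 CPM, plasma and B cell markers between 84.1 and 185 CPM, neutrophil markers between 3.12 and 36.2 CPM, erythroid markers between 3.71 and 23.9 CPM, and Cd4 between 0 and 1.53 CPM. In GzmA+ Tex of library 3 plasma and B cell markers stood at 566 CPM and erythroid markers at 118 CPM. Mitochondrial ribosomal protein genes, summed over 78 genes, ran from 4500 CPM in TIGIT+ Teff to 6384 CPM in cycling cells.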
